A study of Mus musculus with 4 samples.

Results

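The genes described here encode the proteins of the cytosolic ribosome, and they were chosen by symbol: Rpl or Rps followed by digits and at most 1 further letter a, l or x, together with Rplp0, Rplp1, Rplp2 and Rpsa. S6 kinases and symbols of pseudogenes were left out. The rule found 84 genes among the 24411 in the table, 51 of the large subunit and 33 of the small subunit. RNA was sequenced from B220-positive B cells sorted from bone marrow of the tibiae and femur of mice, 2 libraries from mice labelled Arid5b overexpression and 2 from wildtype mice. The labels give no strain, age or sex, no promoter or cell type for the overexpression, and do not say whether each library is 1 mouse, so p-values measure the spread between these libraries. Arid5b, a chromatin factor that binds AT-rich DNA, had 58127 and 2770 reads in overexpression-labelled libraries 1 and 2, against 2993 and 2465 reads in wildtype libraries 1 and 2. It was therefore raised in 1 of the 2 libraries so labelled, and each of these libraries was also compared with the wildtype pair on its own.

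The cytosolic ribosome joins a small subunit, which reads the messenger RNA, to a large subunit, which forms the peptide bond, and each protein is needed in about equal number with the others. Messenger RNAs of these proteins begin with a C followed by a stretch of pyrimidines, the terminal oligopyrimidine (TOP) motif, through which mTORC1 and the RNA-binding protein LARP1 control their translation together. A few proteins have a second gene with the suffix l, such as Rpl22l1 beside Rpl22. In mice, Rpl22 is needed for normal lymphocyte development and holds down the level of Rpl22l1.

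Start windows are shown because the TOP motif is the sequence feature known for these genes, and the choice by symbol did not use it. Of the 63 members with a promoter window in RefSeq (GRCm38.p6), 54% had a run of at least 6 pyrimidines that began with C within 10 bases of the annotated start, against 21.9% of all genes with a window. On the opposite strand the same run was found in 9.52% of members and 25.2% of all genes. The windows printed run from 10 bases before the start to 20 bases from it, 5′ to 3′ on the strand of the gene, with the run, counted from its first C inside that limit of 10 bases, in capitals. The first 5 belong to members that were higher in overexpression-labelled library 1, the next 3 to members that were lower there.
Rps27l at chr9:66946076-66946105, plus strand: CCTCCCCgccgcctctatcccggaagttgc
Rpl28 at chr7:4792955-4792984, plus strand: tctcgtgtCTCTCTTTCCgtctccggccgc
Rpl15 at chr14:18270967-18270996, minus strand: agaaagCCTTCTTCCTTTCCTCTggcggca
Rps26 at chr10:128626487-128626516, minus strand: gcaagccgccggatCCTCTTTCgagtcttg
Rpl7a at chr2:26910797-26910826, plus strand: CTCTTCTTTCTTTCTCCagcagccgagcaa
Rpl22l1 at chr3:28805498-28805527, plus strand: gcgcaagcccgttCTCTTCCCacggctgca
Rps24 at chr14:24490668-24490697, plus strand: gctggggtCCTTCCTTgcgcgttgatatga
Rps27 at chr3:90213629-90213658, minus strand: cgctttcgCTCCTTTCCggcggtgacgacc
Among these 8 windows the marked runs were 7 to 17 bases long. The genes printed all had a run, and of several start windows the one with the longest run was taken, so these lengths describe the choice. Other start windows of Rps27l and Rps24 had runs of 4 and 2 bases. Rpl24, which was higher in library 1, had a run of 2 bases and is not printed. In Rps27l and Rpl7a the pyrimidines went on before the window, by 2 and 4 bases, so that the whole stretch was 9 bases in Rps27l and 21 in Rpl7a. Over the members with a window, a run of at least 6 bases was present in 6 of the 7 higher members with a window, 13 of the 27 lower members with a window and 14 of the 25 members with a window that did not pass the threshold.

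The whole windows of Rps27l and Rpl22l1 are shown because these paralogues had the largest rise and the largest fall in library 1 among members with at least 5 CPM (reads scaled to a common library total). They run from 250 bases before the start to 50 bases after it, with the pyrimidine run and the words AATAC and AATAT, read on either strand, in capitals. These words are core letters of sites bound by the ARID5 family.
Rps27l at chr9:66945836-66946135, plus strand: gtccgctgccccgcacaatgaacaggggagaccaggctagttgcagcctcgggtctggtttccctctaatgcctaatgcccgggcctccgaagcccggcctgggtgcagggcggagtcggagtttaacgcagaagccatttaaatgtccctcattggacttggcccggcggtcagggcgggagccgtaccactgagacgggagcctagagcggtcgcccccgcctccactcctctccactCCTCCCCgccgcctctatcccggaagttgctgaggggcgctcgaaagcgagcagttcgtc
Rpl22l1 at chr3:28805258-28805557, plus strand: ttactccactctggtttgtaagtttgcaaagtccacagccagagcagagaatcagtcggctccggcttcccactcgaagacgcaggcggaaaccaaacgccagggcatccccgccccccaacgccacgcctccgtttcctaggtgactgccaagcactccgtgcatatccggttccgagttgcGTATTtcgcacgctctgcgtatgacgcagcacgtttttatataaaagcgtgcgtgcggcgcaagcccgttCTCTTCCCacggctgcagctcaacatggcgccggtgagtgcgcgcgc
Neither word was in the Rps27l window. AATAC was in the Rpl22l1 window once, on the opposite strand, where it reads as GTATT. Over all windows of this length, at least 1 of the words was present in 31.7% of members and 43.4% of all genes. AATAC alone was present in 23.8% of members and 26.4% of all genes, and AATAT in 14.3% and 28.4%.

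Other properties also set the libraries apart. By limma-trend at an adjusted p of at most 0.05, all 8 mitotic genes rose in library 1 against wildtype, with summed levels of 2516 and 167 CPM in the labelled libraries, against 110 and 118 CPM in wildtype. Neutrophil markers summed to 150 and 1653 CPM, against 7.30 and 112 CPM in wildtype; 11 of 11 tested rose in library 2 and 5 of 11 in library 1, and Lcn2, Camp, Ltf, Chil3 and Cd177 were at 0 in wildtype library 1 and at 0 in no other. B lineage markers summed to 3288 and 5281 CPM, against 4808 and 5355 CPM in wildtype, so all 4 libraries carried them, but the list split in library 1, where 5 of 8 fell and 3 rose. Ptprc, the gene of CD45 and B220, fell there (-2.47), as did Blk (-2.95) and Cd79a (-1.31), and Cd79b (1.10) and Pax5 (0.96) rose. Markers of other cells were also lower in library 1. Those of T and NK cells summed to 2.62 and 22.5 CPM, against 47.5 and 49.1 CPM in wildtype, and 6 of 7 fell in library 1 and 2 of 7 in library 2. Plasmacytoid dendritic markers summed to 163 and 357 CPM, against 440 and 341 CPM in wildtype, and 5 of 6 fell in library 1. Monocyte and macrophage markers summed to 66.3 and 343 CPM, against 118 and 145 CPM in wildtype; in library 1, 5 of 7 fell and 1 rose, and in library 2, 1 rose. Plasma cell markers summed to 118 and 330 CPM, against 293 and 320 CPM in wildtype; in library 1, 3 of 4 fell and 1 rose, and in library 2, 1 fell. All 5 globin genes listed were at 0 throughout. Wildtype library 1 differed from the other 3 in sex-linked genes, with 24 reads of Xist and 3260 of Ddx3y, against 68540 to 132008 and 0 to 1 in the others. The part of these differences in the ribosomal protein values was not tested.

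Most members were among the abundant messages. A mean of at least 100 CPM over the 4 libraries was reached by 74 of the 84 genes, and the highest mean was 2166 CPM, for Rpl4. Levels were compared between genes per transcript length, as CPM per kilobase (CPM per kb). Among the 74 abundant members the mean ran from 161 CPM per kb for Rpl35 to 2160 CPM per kb for Rps4x, with a median of 809 CPM per kb. Rps4x, the X-linked gene of a small subunit protein, had 1658 and 2408 CPM per kb in overexpression-labelled libraries 1 and 2, against 2192 and 2380 CPM per kb in wildtype libraries 1 and 2. Rpl13, a large subunit gene, had 1458 and 2833 CPM per kb, against 2108 and 2222 CPM per kb in wildtype. The next highest means were those of Rpl32, at 1902 CPM per kb, the stalk gene Rplp2, at 1682 CPM per kb, and Rpl9, at 1618 CPM per kb. The ribosome holds most of these proteins once, yet the levels of their genes per length spanned more than an order of magnitude. The low end depends on the transcript chosen: Rps20, at a mean of 622 CPM, came to 168 CPM per kb on a transcript of 3706 bases. Without length, the means of the abundant members ran from 108 to 2166 CPM.

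**Figure D1:**
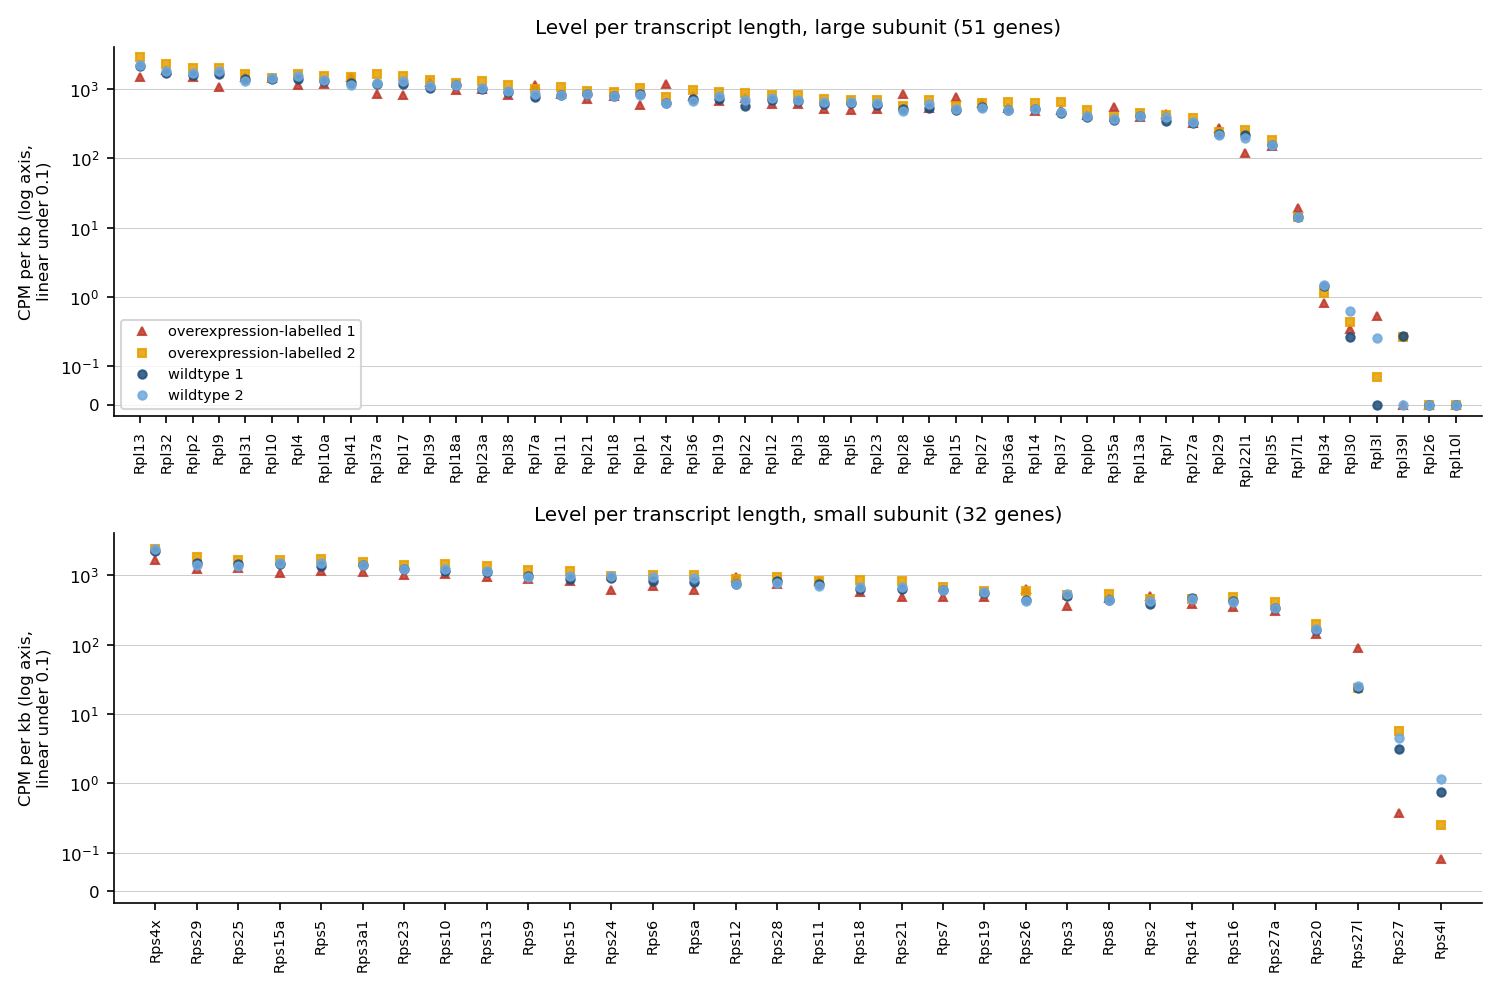
Level of 83 of the 84 genes in CPM per kb (log axis, linear under 0.1), ordered by mean within the large subunit (top) and the small subunit (bottom), with 1 point per library. Points of 1 gene lie close together down to Rpl35 and Rps20, and 10 genes stand below the rest.

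The 10 remaining genes fell far below this range, and 4 of them encode ordinary subunits that every ribosome contains. Rpl26 was listed at 0 in all 4 libraries. Rpl30 had 3, 5, 3 and 5 reads in overexpression-labelled libraries 1 and 2 and wildtype libraries 1 and 2, and Rpl34 had 6, 11, 14 and 10. Rps27 had 2 and 40 reads in the overexpression-labelled libraries, against 22 and 22 in wildtype. Cells that make ribosomes need these genes, so these values were not read as expression levels. Sequence shared with other loci was measured from the annotation. In Rps27, 98.7% of the 50-base windows of its transcript recur in 9 other genes of GENCODE vM21, 8 of them pseudogenes. The share was 71.3% for Rpl26, 47.8% for Rpl30 and 50.6% for Rpl34, against a median of 53.6% over the members. Across the 74 abundant members the shared percentage did not follow the level (Spearman rho 0.18 over genes, which share libraries and are not independent). The 4 genes above are not among these 74, so this value cannot speak to their few reads. How the authors' counting treated reads that match several loci is not given in the sources used here, so counts of genes with near-identical copies are uncertain.

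The other 6 were l-suffix paralogues. Rpl10l, a testis gene, was listed at 0 in all 4 libraries. Rpl39l had 0 and 3 reads in the overexpression-labelled libraries against 3 and 0 reads in wildtype, and Rpl3l, known from muscle, had 11 and 2 reads against 0 and 5 reads in wildtype. Rps4l, annotated as a transcribed processed pseudogene inside Tmtc1, had 1 and 4 reads, against 12 and 13 reads in wildtype. Rpl7l1 and Rps27l were the paralogues with more reads, at a mean of 15.3 and 40.1 CPM per kb. In all, 79 of the 84 members passed the filter on low reads and were tested; Rpl26, Rpl30, Rpl10l, Rpl39l and Rpl3l did not.

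Together the 84 genes took 4.50% and 5.82% of the reads of overexpression-labelled libraries 1 and 2, against 4.87% and 5.07% in wildtype libraries 1 and 2. Library 1 was the lowest of the 4 and library 2 the highest, so the labelled pair lay on both sides of wildtype. The mean was 5.16 ± 0.933% in the labelled pair and 4.97 ± 0.139% in the wildtype pair (SD, n = 2 each; exact two-sided permutation p = 1, where the smallest possible is 0.333). Wilson 95% intervals, which cover counting error only, were 4.49 to 4.51% for library 1 and 5.81 to 5.83% for library 2. Rn45s, the precursor of ribosomal RNA, held 30.5% and 28.3% of reads in the labelled libraries and 30.2% and 25.7% in wildtype, and without it the shares were 6.48% and 8.12% in the labelled libraries, against 6.98% and 6.82% in wildtype. In bulk RNA, fewer cells of a type and less RNA per cell cannot be told apart.

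**Figure D2:**
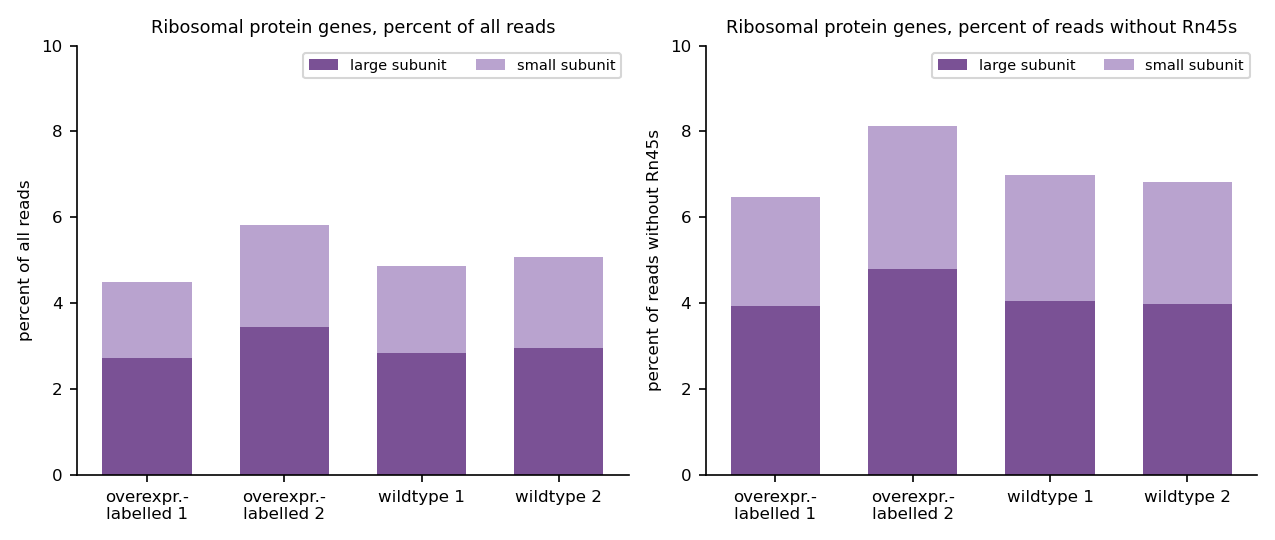
Percent of each library's reads in ribosomal protein genes, of all reads (left) and of reads without Rn45s (right), with large and small subunit genes stacked. Overexpression-labelled library 1 is the lowest bar of each panel and overexpression-labelled library 2 the highest.

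The comparison of both overexpression-labelled libraries with the wildtype pair follows the labels, not the level of Arid5b. Arid5b was raised in 1 of the 2 labelled libraries, and its own difference here was 2.09 (limma adjusted p = 0.726). None of the 79 members passed the threshold of an adjusted p of 0.05 in limma-trend, where 0.0% of all 12617 genes were called. At an unadjusted p under 0.05 there were 0 members and 280 genes of all, or 2.22%, and limma-voom also called 0 members. The median difference of members was 0.00 on the deposited log2 scale, with 40 above 0 and 39 below, against -0.08 over all genes. Both labelled libraries stood above both wildtype libraries in 16 members, or 20.3% of those tested against 19.6% of all genes, and below both in 2 members against 23.0% of all genes. Among the largest differences were 0.78 for Rps27l and 0.54 for Rpl24 upward, and -0.80 for Rps4l, -0.42 for Rps27 and -0.37 for Rps24 downward. Without overexpression-labelled library 2 the same fit called 8 members higher and 37 lower, so the result depends on which labelled library is used.

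In overexpression-labelled library 1, in which Arid5b was high, the 79 members differed from the wildtype pair both ways, 20 positive and 59 negative. Positive differences made up 45.3% of all genes and 34.0% of all genes of at least 100 CPM. Calls were made by limma-trend, and those of members are given by direction above. On the deposited log2 scale, members were called lower more often than all genes were, and called higher less often. A share that pools both directions does not show this. Among all genes tested, 26.8% were called higher and 34.4% lower. The members called came to 57.0% against 61.2% of all genes, so being called was no more frequent here than elsewhere in that library. The differences were small: the interquartile range of the abundant members ran from -0.44 to -0.05 with a median of -0.28, while that of all genes of at least 100 CPM ran from -1.12 to 0.25 with a median of -0.37. Library 1 stood below both wildtype libraries in 59 of 79 members, against 50.9% of all genes, and above both in 18, against 41.4%. In the same number of 59 it was the lowest of the 4 libraries, against 47.9%. Only the wildtype pair gives a spread in this fit, with limma's prior across genes. The mitotic genes of library 1 summed to 2516 CPM, against 110 and 118 CPM in wildtype, and its markers of T and NK, plasmacytoid dendritic, monocyte and plasma cells summed to less than in either wildtype library. The part of these differences in the values of library 1 was not tested.

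Among the members that rose, Rps27l came first, and it is described with the paralogues below. Rpl24, a late-joining protein of the large subunit, had 28895 and 20829 normalised reads (reads divided by the size factor of the library) in overexpression-labelled libraries 1 and 2, against 17018 and 16680 in wildtype. Both labelled libraries were above both wildtype libraries, and library 1 was 1.71-fold above the wildtype mean (difference 0.78, SE 0.117, limma adjusted p = 7.61e-05). Rpl28 had 23507 and 17425 normalised reads, against 15644 and 14427 in wildtype (library 1 difference 0.64, SE 0.121, limma adjusted p = 0.000471). Rpl35a (0.45), Rpl15 (0.42), Rps26 (0.41) and Rpl7a (0.35) also rose. Rps27l and Rpl24 were farther than 3 scaled median absolute deviations from the members' median. Rpl28 and Rpl15 overlap the coding genes Ube2s and Nkiras1. Members that fell also overlap coding genes, among them Rpl3 (Syngr1), Rpl5 (Fam69a) and Rps14 (Ndst1). Whether the counting used strand is not given in the sources used here.

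Among the members that fell, the largest difference with at least 5 CPM was that of Rpl22l1. Rpl9, whose protein lies at the base of the stalk, had 25834 normalised reads in library 1 and 53616 in library 2, against 44612 and 48321 in wildtype. Library 1 was the lowest of the 4 (difference -0.84, SE 0.116, limma adjusted p = 3.6e-05), and library 2 was the highest. Rps24 had 35268 and 63333 normalised reads, against 59634 and 62209 in wildtype (library 1 difference -0.79, SE 0.114, limma adjusted p = 5.34e-05). Rpl17, Rpl13, Rpl37a, Rplp1 and Rps3 followed, at -0.73, -0.72, -0.67, -0.65 and -0.65. Rps27 was also past the threshold, but on 2 reads, against 22 and 22 in wildtype.

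By role, 1 of the 3 genes of the stalk, which recruits translation factors, fell in library 1: Rplp1, whereas Rplp0 (-0.08) and Rplp2 (-0.26) did not pass. Of the proteins of the 5S particle, which can bind Mdm2 and so raise p53, Rpl5 fell (-0.50) and Rpl11 did not pass (-0.09). Rps6, the substrate of S6 kinases, fell (-0.49), as did Rpsa (-0.61), a late-joining small subunit protein also known as laminin receptor, and Rps14 (-0.40) and Rps19 (-0.34), both tied to human anaemias. In the core of the large subunit Rpl4 (-0.48) and Rpl3 (-0.28) fell, and Rpl10 (-0.13) did not pass. Of the 4 X-linked members, Rps4x fell (-0.61), and Rpl10, Rpl36a (-0.05) and Rpl39 (0.07) did not pass. The median difference was -0.39 over the 33 genes of the small subunit and -0.20 over the 46 of the large subunit. Over all genes it was -0.15. The difference between subunits was not tested.

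The scaling between libraries sets how many members count as lower. It moves the calls of all genes as well, and the shares of all genes called were given for the deposited scaling only. Counts of members under other scalings, here and below, therefore do not set the members apart from other genes. The deposited scaling put the median of all genes of library 1 at -0.15, and scaling to library totals without Rn45s put it at 0.02. Relative to that median the members' median was -0.13 as deposited and -0.10 with totals without Rn45s. Among genes of at least 100 CPM the order was the other way as deposited, with medians of -0.28 for members and -0.37 for all genes. As deposited the split was 8 higher and 37 lower. It was 10 and 26 with recomputed median-ratio factors, 10 and 17 with library totals, 12 and 18 with totals without Rn45s, and 8 and 30 with trimmed means. All 8 higher members were called under each of these 5 scalings, and 17 of the 37 lower members were, among them Rpl22l1, Rpl9, Rps24, Rpl17, Rpl13, Rpl37a, Rplp1, Rps3, Rps6, Rpsa, Rpl5 and Rps4x. Rps14, Rps19, Rpl3 and Rpl4 were not called with library totals, and of these Rps19 and Rpl3 were called under the deposited scaling only.

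**Figure D3:**
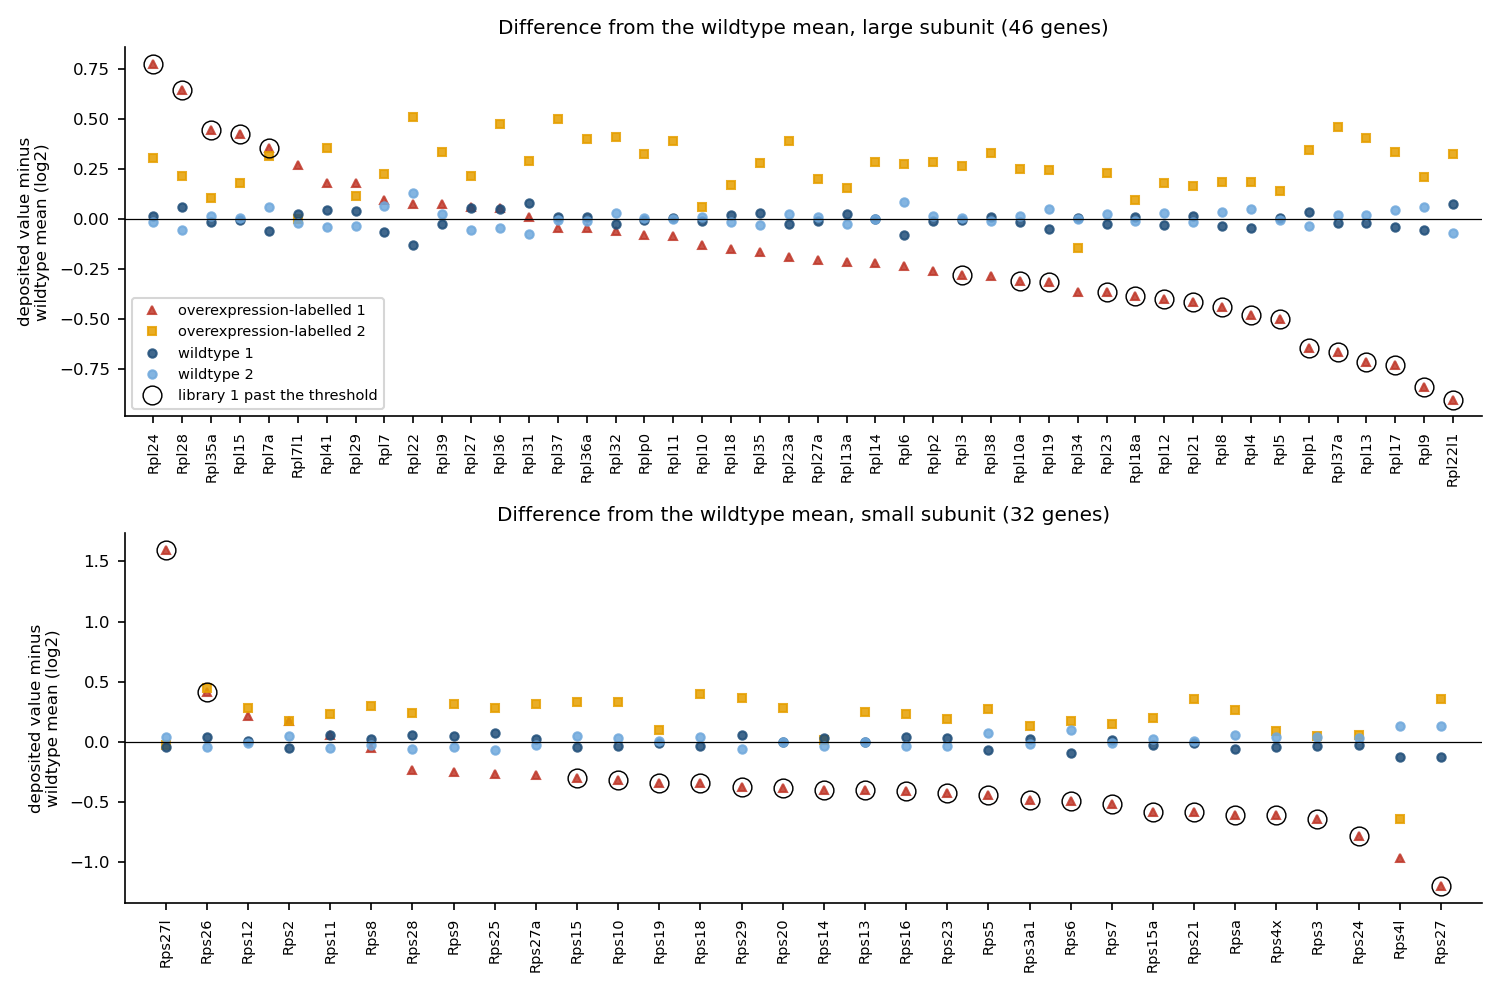
Deposited log2 value of each library minus the wildtype mean of the gene, for the 46 large subunit genes (top) and 32 of the 33 small subunit genes tested (bottom), ordered by overexpression-labelled library 1. Circled points passed the threshold in library 1; library 2 lies above 0 for 75 of the 78 genes drawn, and the wildtype libraries lie close to 0.

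Overexpression-labelled library 2, in which Arid5b was not raised, had slightly higher values than wildtype in most members, and no member passed the threshold in limma-trend, where 0.769% of all genes were called higher and 0.888% lower, and the smallest adjusted p among members was 0.073. At an unadjusted p under 0.05, 36 members were higher and 0 lower, against 8.06% of all genes higher. Limma-voom called 10 members higher, or 12.7% of those tested, against 2.94% of all genes, and 0 lower, against 1.93%. The difference was positive in 76 of the 79 members and in all 74 of at least 100 CPM, while 46.2% of all genes of that abundance were positive. Their median was 0.27 with an interquartile range from 0.18 to 0.33, against a median of -0.03 for all genes of at least 100 CPM.

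Library 2 stood above both wildtype libraries in 74 of 79 members, against 38.7% of all genes, and was the highest of the 4 libraries in 67 members, against 22.2%. It stood below both in 2 members, against 37.3%. The direction held under each scaling tried: 75 or 76 members of 79 were positive, and the median ran from 0.25 to 0.26. It held when each wildtype library was left out (median 0.26 without either, 76 and 75 members positive). The members' counts are no independent observations, since all come from the same library. Neutrophil markers were also high in library 2, at 1653 CPM against 7.30 and 112 CPM in wildtype, and their part in these values was not tested.

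The largest difference was that of Rpl22, which had 12361 and 16722 normalised reads in overexpression-labelled libraries 1 and 2, against 10713 and 12858 in wildtype (library 2 difference 0.51, SE 0.141, limma adjusted p = 0.105). Library 2 was the highest of the 4, and library 1 lay between the wildtype libraries. Rpl37 had 14575 and 21302 normalised reads, against 15144 and 15000 in wildtype (library 2 difference 0.50, SE 0.124, limma adjusted p = 0.073). Rpl36 followed at 0.47 (SE 0.129, limma adjusted p = 0.0999). All 3 were among the 10 that limma-voom called. At the other end stood Rps4l (-0.64) and Rpl34 (-0.15), with few reads, and Rps27l (-0.03). The stalk genes differed by 0.28 to 0.35, and the 4 X-linked members by 0.06 to 0.40.

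Both single-library comparisons share the wildtype pair, so their values were set side by side without a measure of likeness. The 8 members that rose in library 1 had differences of -0.03 to 0.44 in library 2, and the 37 that fell had differences of 0.02 to 0.46. A longer transcript went with a smaller difference in library 2 (Spearman rho -0.49 across 74 genes) and less so in library 1 (-0.25). Coding length gave -0.44 in library 2 and -0.17 in library 1. For mean CPM the order was the other way, at -0.23 in library 2 and -0.44 in library 1. Values for percent GC, shared sequence and small nucleolar RNA genes inside ran from -0.14 to 0.17. These are descriptions across genes that share their libraries.

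**Figure D4:**
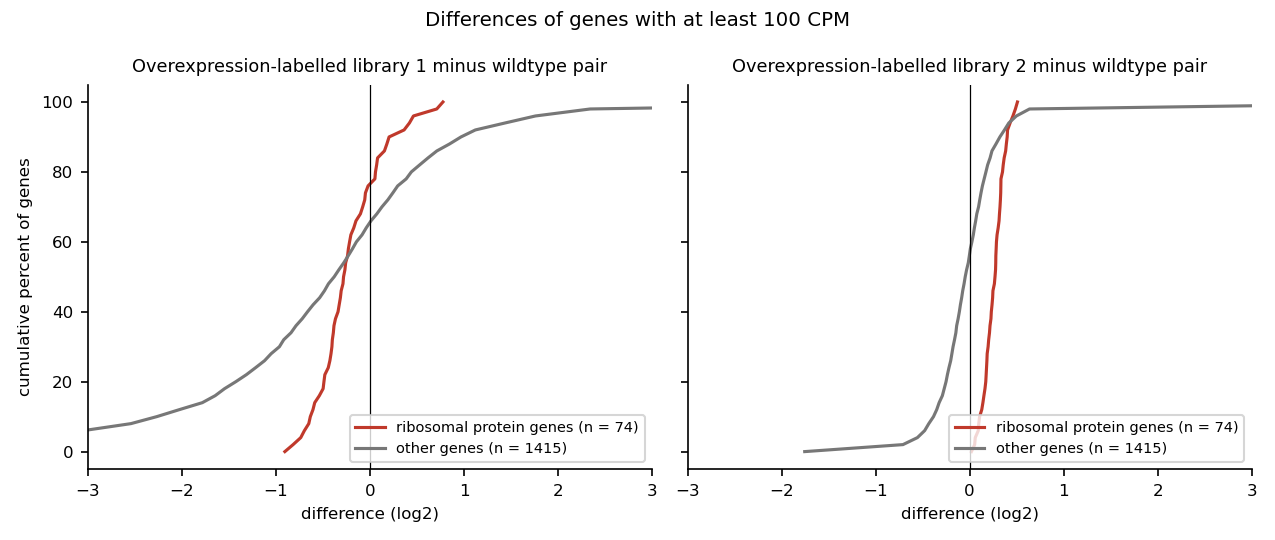
Cumulative percent of genes (vertical axis) by difference from the wildtype pair on the log2 scale (horizontal axis), for the 74 ribosomal protein genes and the 1415 other genes of at least 100 CPM; a few other genes lie outside the axis. In library 1 (left) the ribosomal protein genes span a narrower range than other genes, and in library 2 (right) all 74 lie above 0.

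Set directly against each other, overexpression-labelled library 1 was higher than library 2 in 4 members and lower in 56 of 79 by limma-trend, where 22.4% of all genes were higher and 30.1% lower. The spread again came from the wildtype pair. The median difference of members was -0.55, against -0.14 over all genes. Among genes of at least 100 CPM the gap was smaller, with medians of -0.55 for members and -0.37 for all genes. The higher members included Rps27l (1.62), Rpl24 (0.47) and Rpl28 (0.43). The largest falls with at least 5 CPM were those of Rpl22l1 (-1.23), Rpl37a (-1.13), Rpl13 (-1.12), Rpl17 (-1.07), Rpl9 (-1.05), Rplp1 (-0.99), Rps21 (-0.95) and Rpsa (-0.87). Across the 5 scalings 37 of the 56 lower and all 4 higher members stayed called.

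Rps27l and Rpl22l1, both l-suffix paralogues, were the members at the ends of the library 1 comparison with at least 5 CPM. Rps27l, which shares 76.2% of coding positions with Rps27 and is a p53 target in human cells, lies on chromosome 9 at 66946086 to 66949516 (GRCm38). It had 671 and 239 reads in overexpression-labelled libraries 1 and 2, against 234 and 180 reads in wildtype, or 1574 and 471 normalised reads against 466 and 498 in wildtype. Library 1 stood apart from the other 3, which lay together, and was 3.27-fold above the wildtype mean (difference 1.59, SE 0.231, limma adjusted p = 5.63e-05). Library 2 differed by -0.03 (SE 0.261, limma adjusted p = 0.974), and the difference between the labelled libraries was itself past the threshold (1.62, SE 0.276, limma adjusted p = 0.000333). No ratio to Rps27 was drawn, because of the few reads of that gene.

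Rpl22l1, on chromosome 3 at 28805436 to 28807424, shares 66.9% of coding positions with Rpl22. It had 2369 and 5649 normalised reads in overexpression-labelled libraries 1 and 2, against 4724 and 4270 in wildtype. Library 1 was the lowest, at 0.527 of the wildtype mean (difference -0.91, SE 0.151, limma adjusted p = 0.000183), and library 2 the highest (difference 0.33, SE 0.147, limma adjusted p = 0.300). Its parent Rpl22 did not pass in library 1 (0.07, limma adjusted p = 0.652). Per 100 reads of Rpl22 there were 19.2 and 33.8 reads of Rpl22l1 in the labelled libraries, against 44.1 and 33.2 in wildtype. Library 1 was the lowest, and library 2 lay between the wildtype libraries, whose own gap came from Rpl22 (267 and 328 CPM) more than from Rpl22l1 (118 and 109 CPM). Rpl7l1, at 53.0% coding identity to Rpl7, had 896 and 734 normalised reads, against 747 and 721 in wildtype, and did not pass in either library (0.27 and 0.00).

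**Figure D5:**
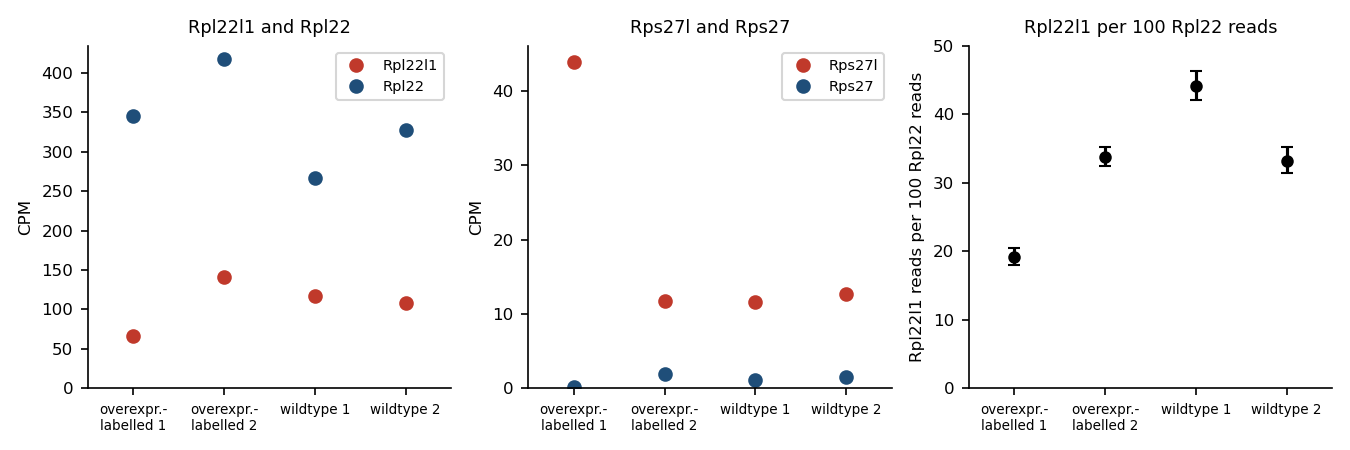
CPM of Rpl22l1 and Rpl22 (left) and of Rps27l and Rps27 (middle) in the 4 libraries, and Rpl22l1 reads per 100 Rpl22 reads with a 95% interval of counting error (right). Rps27l is at 43.9 CPM in overexpression-labelled library 1 and at 11.6 to 12.7 CPM in the other 3, and the Rpl22l1 ratio is lowest in library 1.

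A few ribosomal proteins carry other symbols. Fau, a ubiquitin-like fusion with a small subunit protein, had 208 and 322 CPM, against 299 and 319 CPM in wildtype, and fell in library 1 (-0.71). Rpl36al, a paralogue of Rpl36a, rose there (0.46). In library 2 their differences were 0.08 and 0.19, and neither passed.

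Of 35 translation factors and other genes of the TOP class tested, 11 rose in library 1 and 8 fell, or 31.4% and 22.9%, against 26.8% and 34.4% of all genes. Whether each of the 35 genes is of the TOP class was not checked, so these counts describe the list, not that class. Npm1, a nucleolar factor of ribosome assembly, rose (0.99), as did the initiation factor genes Eif3b (0.90), Eif3l (0.88) and Eif4a1 (0.88). Eif4a2 and Tpt1 fell (-0.84 each), as did the elongation factor genes Eef1g (-0.46) and Eef1a1 (-0.31). In library 2, 0 of 35 passed, with 29 positive and a median of 0.17. Of 14 genes of mTORC1, LARP1 and S6 kinase control, Akt1 (2.07), Mtor (2.02), Eif4ebp1 (1.75) and Pdk1 (1.14) rose in library 1, and Tsc1 (-0.76) and Larp1 (-0.50) fell, so that 28.6% rose and 14.3% fell, against the same 26.8% and 34.4% of all genes. None passed in library 2, where 6 of 14 were positive. By its symbol Pdk1 is a pyruvate dehydrogenase kinase, and both the 14 genes and the 28.6% that rose include it.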

How the data were processed

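The members and gene lists were chosen with earlier results of these data known. STAR, HTSeq and DESeq2 were run by the authors with mm10, per the submitters' processing notes, and versions, annotation and handling of multiply matching reads are not given in the sources used here. The authors deposited log2 values of variance-stabilised form, with a floor of 4.949 for genes without reads. Undoing that form gave whole reads in 100% of values within 0.01; library totals ran from 14196665 to 20356404 reads. Genes kept had 10 or more reads, scaled to the median library, in 2 libraries and 15 in all. They were tested with limma-trend (limma 3.58.1, R 4.3.3) on the deposited log2 values, two-sided, with Benjamini-Hochberg adjustment over 12617 genes and a threshold of 0.05, as the design set for log2 values. It was tested on simulated reads. Differences understate the change of genes with few reads. Lengths are of the shortest GENCODE vM21 transcript with the main coding sequence, not the authors' annotation. Named members are the paralogues and parents, the stalk, Rpsa, Rps3, Rps6, Rps14, Rps19, Rpl3, Rpl4, Rpl5, Rpl10 and Rpl11, the X-linked members, the 5 highest and 5 lowest per length, members past 3 scaled deviations, and the 8 largest rises and falls past the threshold with at least 5 CPM, or the 3 largest differences where none passed. Others were named after their values were seen. Some genes are not reported here by name or drawn singly. Alternatives changed the scaling, filter, scale, test and libraries.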

Additional observations from a re-analysis of the deposited data

How the results depend on the processing

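With 2 libraries a group, of which 1 has raised Arid5b, these comparisons describe libraries more than genotypes, and single-library fits have 1 residual degree of freedom. No paired analysis was possible because the labels number no replicates; the numbers 1 and 2 used here follow the order of deposit and pair nothing. Depth limits only the members with few reads. In the comparison of both groups, leaving out 1 library in turn gave 0 to 8 members higher and 0 to 37 lower. For library 1 against wildtype, 37 lower members became 17 with library totals and 18 with totals without Rn45s. Testing all 24411 genes without a filter gave 0 higher and 0 lower there, and 0 and 0 for library 1 against library 2, although the differences are the same. A filter on a mean of at least 10 reads gave 2 higher for library 1 against library 2. Limma-voom gave 10 higher for library 2 against wildtype. The overexpression minus wildtype share was 0.187 percentage points, and 0.394 of reads without Rn45s. The cause was not tested. No difference named changed sign where a call was involved, and the Rpl22l1 ratio kept its direction on the deposited scale.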

Other observations

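Small nucleolar RNA genes, many of which lie in introns of ribosomal protein genes, had fewer reads in overexpression-labelled library 1. The 33 such genes inside members had 202 and 1518 reads in overexpression-labelled libraries 1 and 2, against 1393 and 976 reads in wildtype, or 13.2 and 74.6 CPM against 69.1 and 68.7 CPM. Of the 28 with at least 15 reads in all, 25 were lowest in library 1. Over all Snora and Snord genes with that many reads it was 72 of 82. Both counts are by CPM. Of all genes tested, 47.9% were lowest in library 1 by deposited values, which are scaled otherwise. All 110 Snora and Snord genes summed to 88.2 and 229 CPM in the labelled libraries, against 229 and 249 CPM in wildtype, so genes outside the members were lower too. The host messages did not stand apart: the 29 abundant members with such a gene inside had a median difference of -0.28 in library 1, as did the 45 without one. No test was run on these sums.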
